A study of Arabidopsis thaliana with 6 samples.

Results

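CML37, CML38, CML39 and CML40 are 4 calmodulin-like genes of Arabidopsis thaliana, followed here in rosette leaves of the flu mutant and of its wild type during the first 2 h of light after a dark period. Members were taken by locus from the annotation of the ATH1 array: AT5G42380 (CML37), AT1G76650 (CML38), AT1G76640 (CML39) and AT3G01830 (CML40). Each had 1 probe set, 249197_at, 259879_at, 259866_at and 258947_at in that order, so the family members are 4 of 22746 probe sets on the array. The locus decided the match, because the RefSeq gene table gives CML39 as a synonym of both AT5G42380 and AT1G76640. CML38 and CML39 are direct neighbours in that table, with 0 genes between them, and neither shares its probe set with another named gene.

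The mutant plants carried the allele flu1-1 in the Landsberg erecta ecotype, and the wild type was Landsberg erecta itself (Ler). Plants aged 3 weeks and raised in continuous light spent 8 h in darkness, and leaves were taken 30 min, 60 min or 2 h into the new light. One ATH1 array was hybridised per genotype and time, 6 in all, with RNA of 2 biological experiments pooled on each and 5 to 6 plants per sample. No array has a replicate, which limits the precision, and none shows plants before the light came back.

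The FLU protein sits in the plastid and restrains the making of chlorophyll precursors in the dark. Without it, protochlorophyllide builds up and releases singlet oxygen in the plastids once light returns. Calmodulin-like proteins are small calcium sensors: their EF-hand motifs bind calcium when its level in the cell rises, and the bound form acts on partner proteins, since the sensor itself has no enzyme activity. CML37 is known as a positive regulator of jasmonate-dependent defence against herbivores and of drought responses. CML38 is induced by low oxygen and is found in stress granules, and CML39 has been studied in seedling establishment. AT3G01830 served as a singlet oxygen marker in earlier work on flu, so its direction here is not independent evidence.

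The leaf label was checked on photosynthesis genes. Of 16 leaf markers 3 had a named probe set, LHCB4.1, LHCB4.2 and PRK, bright in both genotypes at 4036 to 16963 in flu and 7002 to 23291 in Ler. Of the markers of other cell types, the guard cell gene FAMA read 228 to 363 in flu and 269 to 329 in Ler, and the trichome gene TRY 170 to 214 in flu and 212 to 393 in Ler. They were the 1 named gene of 7 and of 5 listed, and the vascular, root and flower lists had 0 named probe sets. In whole leaves, fewer cells of a type and less RNA per cell cannot be told apart. RNAs added as hybridisation controls had their lowest geometric mean on the flu array of 30 min, 743, against 1077 and 1200 on the other flu arrays and 1213 to 1468 on the Ler arrays.

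Values below are MAS5 signals, a linear brightness per probe set, with the 2% trimmed mean of every array at 500. Differences are flu minus Ler on the scale log2(signal + 50), where the added 50 makes differences of dim probe sets smaller. All 12 Ler values of the 4 genes lay under the median signal of their arrays, as did 2 of the 12 flu values, both of CML39. No detection calls were used, so whether such dim signals exceed background is not known.

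CML40 stood far higher in flu from the first time on. Listed by time (30 min, 60 min, 2 h), its flu signals were 1331, 2827 and 2625, against 66.0, 103 and 54.3 in Ler. The groups did not overlap, with the lowest flu array 3.17 log2 units above the highest Ler array. Over the 3 times the mean difference was 4.16 (SE 0.23, limma adjusted p = 0.00104, higher at 3 of 3 times), which is 17.9-fold and the 9th highest of 13064 probe sets tested. Among the flu arrays, 60 min and 2 h were only 0.11 apart, less than the residual SD of 0.39 left by the fit, and both lay further than that above 30 min.

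CML37 had the widest gap at 2 h. It read 1073, 2088 and 3107 in flu in order of time, against 65.3, 143 and 35.1 in Ler. All 3 flu arrays exceeded all 3 Ler arrays, and the Ler array of 60 min was the brightest of its genotype. The mean difference was 3.99 (SE 0.38, limma adjusted p = 0.00412, higher at 3 of 3 times), or 15.9-fold, ranking 19th. Steps between neighbouring Ler arrays in the order of levels, 0.74 and 0.44, were within the residual SD of 0.75. As for CML40, that SD gives no test of such steps.

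For CML38 the flu signals were 478, 1186 and 1532, against 7.30, 89.4 and 23.5 in Ler. Again the genotypes did not overlap. The mean difference came to 3.59 (SE 0.29, limma adjusted p = 0.00244, higher at 3 of 3 times), or 12.1-fold, ranking 36th. Its size at 30 min depends on the added constant, because the Ler signal there was so dim: the log2 difference of 3.20 became 4.41 with 16 added and 2.43 with 100 added.

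CML39 was dim in both genotypes until 60 min. Its flu signals were 4.13, 29.5 and 1009, in order of time, against 11.3, 4.66 and 9.04 in Ler. The flu array of 2 h alone stood apart, while the flu array of 30 min was the dimmest of all 6, so the genotypes overlapped. Across the times the mean difference was 1.51 (SE 0.89, limma adjusted p = 0.386, higher at 2 of 3 times) and did not pass. That mean rests on 1 time: without the arrays of 2 h it was 0.18 (limma adjusted p = 0.965), and without those of 30 min 2.35 (limma adjusted p = 0.191).

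**Figure D1:**
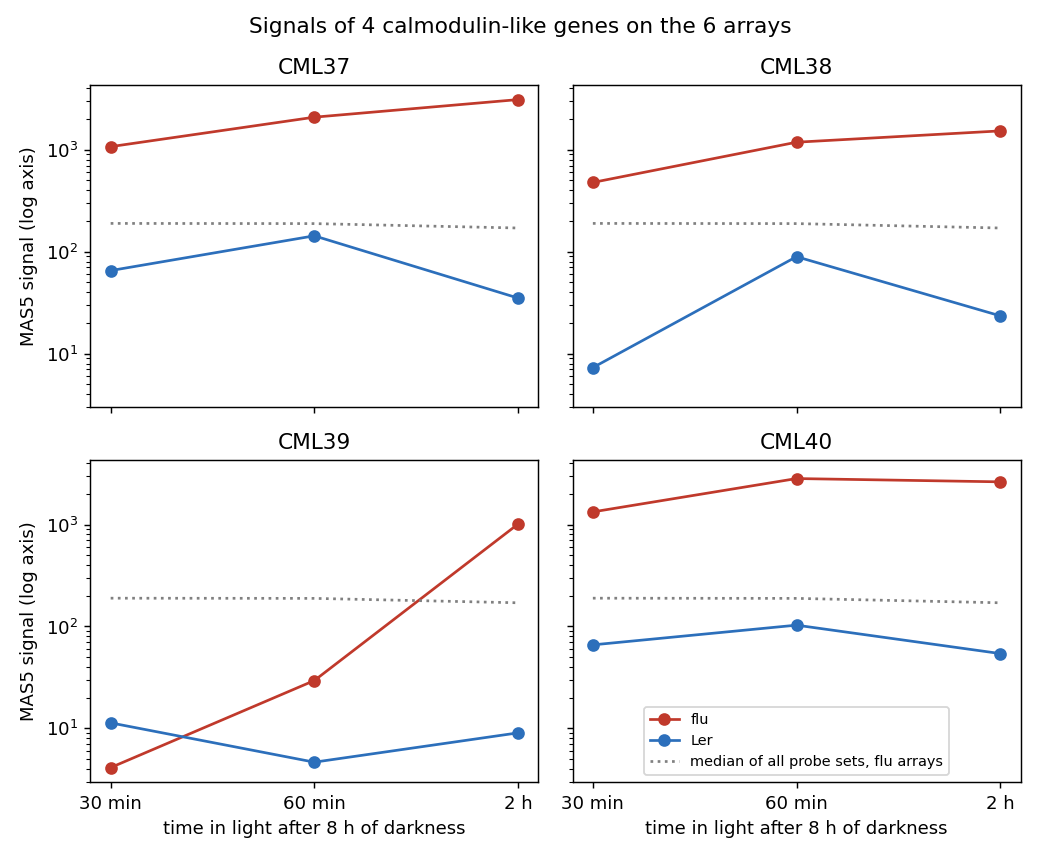
MAS5 signal (log axis) of CML37, CML38, CML39 and CML40 on each of the 6 arrays against time in light, with flu in red, Ler in blue and the median of all probe sets on the flu arrays dotted. Each point is 1 array; for CML37, CML38 and CML40 every flu point lies above every Ler point, while CML39 leaves the dim range only in flu at 2 h, at 1009.

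By the test across times, CML37, CML38 and CML40 were higher in flu than in Ler. A probe set was tested if at least 1 array reached a signal of 185, and the 4 genes did so through flu alone, on 3 flu arrays each (CML39 on 1) and on 0 Ler arrays. Genes admitted in this way could hardly be called lower. The shares of all tested probe sets called higher (2.87%) and lower (0.375%) in flu are thus given as description only. The same holds for every share of tested probe sets set beside the 4 genes below. With no filter the same 3 genes passed (limma adjusted p = 0.0114, 0.00670 and 0.00301), and 1.19% of 22746 probe sets were called higher in flu. Complete separation of the 3 flu arrays from the 3 Ler arrays in the higher direction, seen for CML37, CML38 and CML40, occurred for 9.36% of all tested probe sets. The p-values rest on a spread over the 3 times and not over replicates, and a difference that grows with time counts as noise in this fit. That spread is also drawn toward the spread of other probe sets of like brightness. This prior counts for 4.18 degrees of freedom, against 2 from the gene itself. Mean differences of CML37, CML38 and CML40 ranged from 3.38 to 4.34, from 3.18 to 3.82 and from 3.90 to 4.46 when 1 time at a time was left out, and passed each time.

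Set against the whole array, the rank of each gene within its own array gives a view that needs no scaling. CML37 lay at the 85.2, 93.0 and 95.4 percentile of its flu arrays in order of time, against 28.0, 45.9 and 20.5 in Ler. CML40 lay at 88.1, 95.1 and 94.4 in flu, against 28.2, 40.4 and 26.9 in Ler. Both genes thus ranked high on every flu array and below the middle of every Ler array. CML38 reached 69.6, 86.9 and 89.6 in flu, against 6.85, 38.0 and 16.5 in Ler. For CML39 the percentiles were 5.24, 17.7 and 84.6 in flu, against 10.1, 6.58 and 9.29 in Ler.

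The single times, each 1 array against 1 array and without a test, show when the genes separated. At 30 min CML40 differed by 3.57, CML37 by 3.28 and CML38 by 3.20, ranking 30th, 43rd and 50th of 13064, while CML39 differed by -0.18. Being at least 2-fold higher, as these 3 of the 4 genes were, applied to 2.98% of all tested probe sets at 30 min. At 60 min the same 3 genes were past 2-fold, against 6.12% of all tested probe sets, with 4.23 for CML40, 3.47 for CML37 and 3.15 for CML38, and CML39 at 0.54. At 2 h all 4 were past 2-fold, against 10.1% of all, with CML37 at 5.21 (37.1-fold, ranking 14th), CML40 at 4.68, CML38 at 4.43 and CML39 at 4.17 (17.9-fold, ranking 72nd). The middle probe set of the whole ranking stood at -0.04 at 30 min, -0.08 at 60 min and -0.20 at 2 h.

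**Figure D2:**
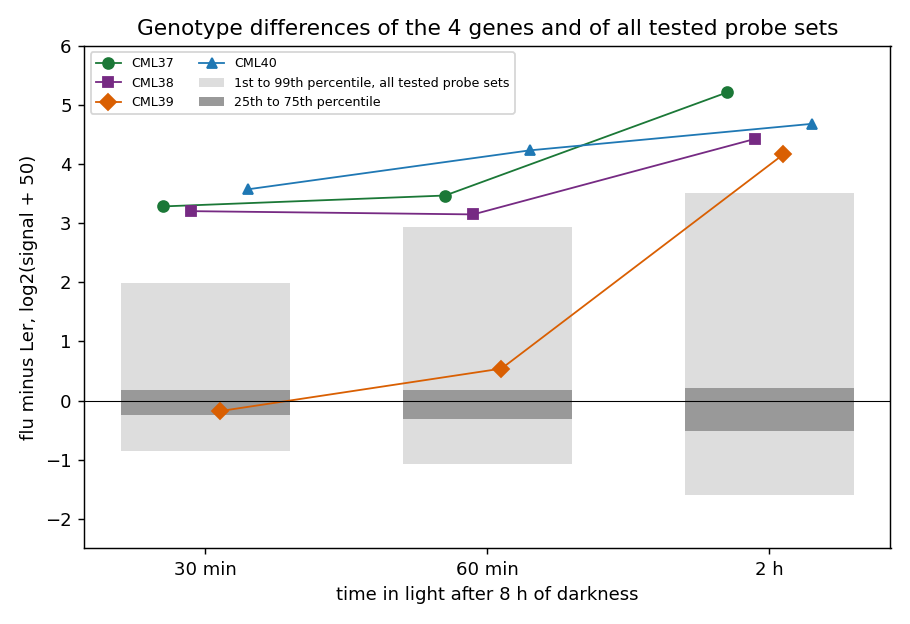
Flu minus Ler difference in log2(signal + 50) of the 4 genes at each time (1 array per genotype, points joined by gene), over the range of all 13064 tested probe sets (light bars, 1st to 99th percentile; dark bars, 25th to 75th). CML37, CML38 and CML40 lie above the 99th percentile at each of the 3 times (1.98, 2.93 and 3.51), and CML39 only at 2 h.

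Whether the genotype difference grew with time was tested by adding an interaction of genotype and log2 minutes to the fit. CML39 grew by 2.17 per doubling of the time in light (SE 0.51, limma adjusted p = 0.0340) and CML37 by 0.96 (SE 0.23, limma adjusted p = 0.0368). CML38 had 0.61 (SE 0.25, limma adjusted p = 0.213) and CML40 0.55 (SE 0.18, limma adjusted p = 0.121), which did not pass. Over all tested probe sets 3.64% had a positive and 1.44% a negative call, shares that are no measure for genes admitted through their flu arrays, CML39 through that of 2 h alone. With no filter CML39 and CML37 passed as well (limma adjusted p = 0.00356 and 0.0332), and 2.30% of 22746 probe sets had a positive call. This test has 1 residual degree of freedom, against 9.65 of the prior, so its spread comes mostly from other probe sets. Both calls were lost in some settings. After quantile normalization the limma adjusted p was 0.113 for CML37 and 0.104 for CML39. Over 7 alternatives the limma adjusted p ranged from 0.0233 to 0.113 for CML37 and from 0.00356 to 0.339 for CML39. Whether the 4 genes differ from each other in this growth was not tested.

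The steps between neighbouring times split this growth. From 60 min to 2 h the CML39 difference grew by 3.63, of which flu contributed a change of 3.74 and Ler one of 0.11. A step that large was reached by 0.153% of all tested probe sets. CML39 was admitted through its flu array of 2 h alone, which favours a large step, so that share is description only. For CML37 the step was 1.74, made of a change of 0.56 in flu and of -1.18 in Ler. Ler thus carried more of this step than flu. Over the whole span from 30 min to 2 h CML37 changed by 1.49 in flu and by -0.44 in Ler, so there flu carried more. CML38 had a step of 1.28, with 0.36 in flu and -0.92 in Ler, and CML40 one of 0.45, with -0.11 in flu and -0.55 in Ler. At least 2-fold higher at 2 h than at 60 min were 1 of the 4 genes in flu, CML39 (13.3-fold), against 4.38% of all tested probe sets, and 0 of the 4 in Ler, against 0.398%. These Ler signals were dim, and none of the steps has a test.

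From 30 min to 60 min the flu signals were higher at the later time for all 4 genes, by 1.23 for CML38, 1.06 for CML40, 0.93 for CML37 and 0.55 for CML39. At least 2-fold higher were CML38 and CML40, as were 2.75% of all tested probe sets. Ler moved the same way for CML38 (1.28), CML37 (0.74) and CML40 (0.40), and CML39 had -0.17. Only CML38 was past 2-fold in Ler (2.43-fold), as were 0.727% of all tested probe sets. On this scale the genotype difference moved little over this step, by -0.06 for CML38 and 0.18 for CML37, and by more for CML40 (0.66) and CML39 (0.72). For CML38 the direction and size of this step depend on the added constant. Its difference fell from 4.41 to 3.51 with 16 added and rose from 2.43 to 2.76 with 100 added. The flu array of 30 min, the dimmest flu array for each of the 4 genes, is also the one with the lowest hybridisation controls, whose part in these steps was not tested.

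Over the whole span from 30 min to 2 h, 3 of the 4 genes were at least 2-fold higher at the later time in flu, against 7.43% of all tested probe sets: CML39 (19.6-fold), CML38 (3.00-fold) and CML37 (2.81-fold), with CML40 at 1.94-fold. In Ler 0 of the 4 were, against 1.34% of all, with log2 changes between -0.44 for CML37 and 0.36 for CML38.

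In Ler, CML37, CML38 and CML40 each had their brightest array at 60 min, as did 26.6% of all tested probe sets. The smaller of the 2 gaps to the other Ler arrays was 0.92 for CML38, 0.74 for CML37 and 0.40 for CML40, sizes reached by 0.176%, 0.413% and 2.11% of all tested probe sets. CML39 had its dimmest Ler array at 60 min, with gaps of only -0.17 and -0.11. All of these Ler signals lay under the array medians, each time is 1 array, and the pattern was noticed in the data and not tested.

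**Figure D3:**
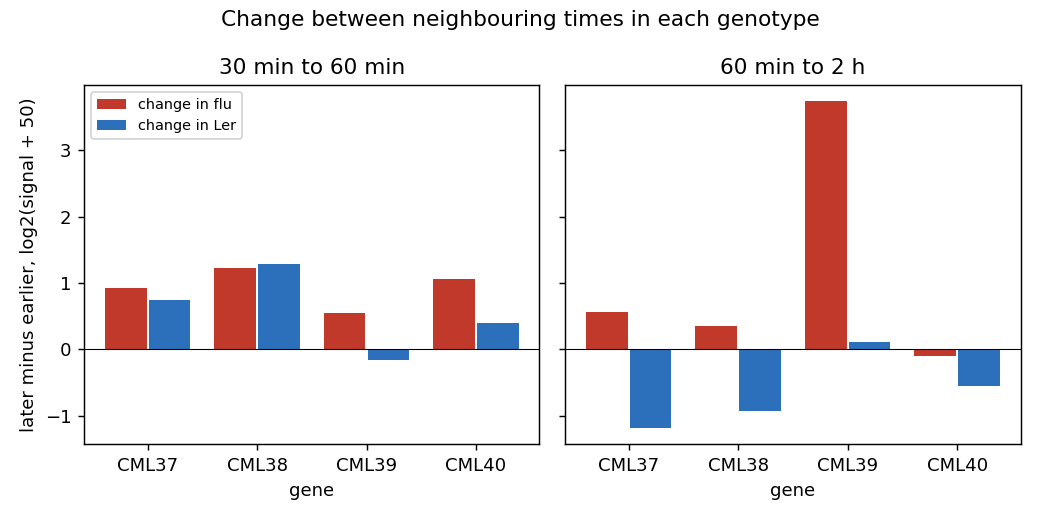
Later minus earlier log2(signal + 50) of each gene between neighbouring times (left, 30 min to 60 min; right, 60 min to 2 h), with the change in flu in red and that in Ler in blue, each 1 array against 1 array. CML39 has a flu change of 3.74 in the second step, and CML37, CML38 and CML40 have negative Ler changes there, from -1.18 to -0.55.

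The likeness of the 4 patterns was measured as the root mean square difference between profiles over the 6 arrays, each profile centred on its own mean. CML37 and CML40 were 0.29 apart, CML37 and CML38 0.32, and CML38 and CML40 0.43, where the median distance of CML37 to all other tested probe sets was 2.14. Seen from CML37, CML40 was the 2nd nearest of 13063 probe sets and CML38 the 4th. CML39 was 1.53 from CML38, its neighbour on the chromosome, 1.64 from CML37 and 1.80 from CML40. The nearest of these, CML38, was the 3469th in the order of CML39, where the median distance was 1.63. Seen from CML38, with a median distance of 1.97, CML39 was the 968th. These distances describe the arrays, in which the genes share library and scaling, and carry no test. Profiles were centred but not scaled, so genes with large genotype differences of like size come out close by this measure.

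Outside the family, the named genes nearest to CML40 were AT3G02840 (0.19), AT3G04640 (0.23) and AT1G76600 (0.27). AT3G02840 read 984, 2039 and 1975 in flu, against 32.0, 63.8 and 59.4 in Ler. Nearest to CML37 were AT4G39670 (0.32), AT3G02840 (0.39) and AT1G76600 (0.40), and AT4G39670 read 914, 3323 and 4050 in flu, against 103, 236 and 32.0 in Ler. CML38 had AT5G65300 as the nearest of all probe sets (0.29), followed among named genes by AT4G24380 (0.34) and XTH18 (0.38), a gene of a cell wall enzyme that cuts and rejoins xyloglucan. AT5G65300 read 475, 1101 and 1613 in flu, against 42.1, 128 and 54.7 in Ler.

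CML39 had other neighbours. The nearest of all probe sets was UGT76E12 (0.16), a UDP-glycosyltransferase gene, which read 1.40, 20.5 and 1065 in flu, against 2.54, 14.5 and 5.25 in Ler. AT2G21640 (0.23) read 169, 335 and 3899 in flu, against 174, 245 and 259 in Ler. BSMT1 (0.25), which encodes a methyltransferase of salicylic and benzoic acid, read 7.98, 37.1 and 1302 in flu, against 5.06, 5.89 and 40.7 in Ler. Like CML39, these 3 genes were bright in flu at 2 h and near their Ler level at 30 min, and none passed the test across the 3 times (limma adjusted p from 0.328 to 0.416). In the test of growth with time AT2G21640 and BSMT1 passed (limma adjusted p = 0.00808 and 0.0401) and UGT76E12 did not (limma adjusted p = 0.0547). The 3 genes were chosen for likeness to CML39 on these same arrays. Their shared pattern and like test outcomes follow largely from that choice and are no separate evidence.

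**Figure D4:**
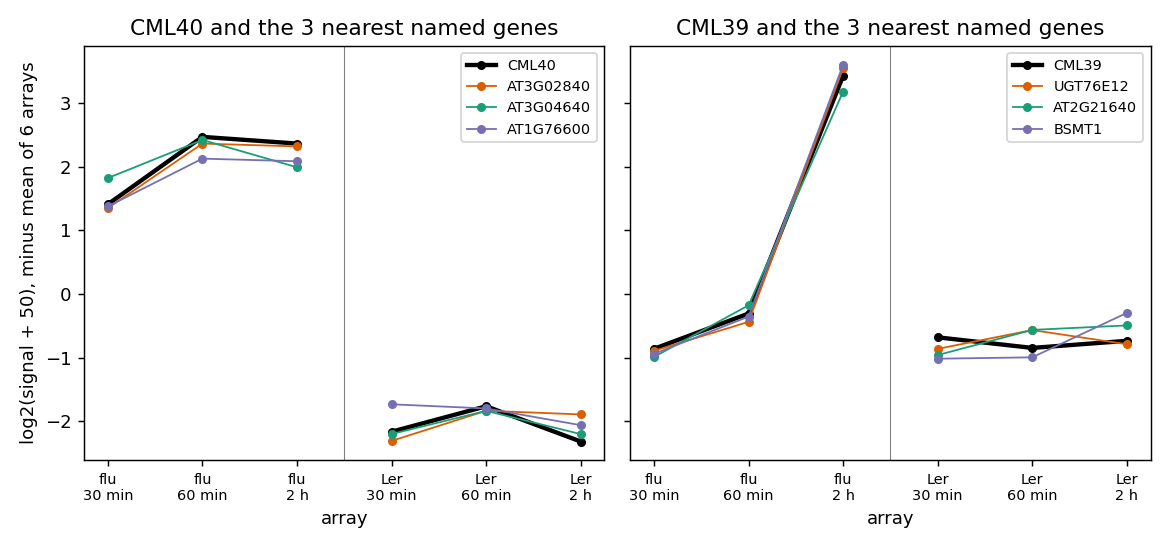
Log2(signal + 50) minus the gene's mean over the 6 arrays, for CML40 (left) and CML39 (right, both black) and the 3 named genes nearest to each, by array, flu before Ler. The CML40 profiles are high on all 3 flu arrays, and those of CML39 stand at 3.18 to 3.60 on the flu array of 2 h and below 0 on the other 5.

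The wider calcium machinery was described with 11 lists of genes for sensors, kinases, channels, transporters and calmodulin-binding proteins. Genes were listed by matching symbols and synonyms, so family members without a matching symbol are not counted. Of 220 listed genes outside the 4 members, 28 had a named probe set, all in 3 lists, and 17 were bright enough to be tested. Calmodulins, calcineurin B-like proteins and their kinases, calcium-dependent kinases, pumps, CAMTA factors and respiratory burst oxidases were not analysed here for want of a named probe set. By the limma test across times 0 of the 17 were called higher in flu and 0 lower, against 2.87% and 0.375% of all tested probe sets. Before adjustment, 2 genes had p under 0.05 on the higher side, CML23 and CML42, and 2 on the lower, GLR3.5 and IQD24.

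Among the other calmodulin-like genes, 5 of the 11 listed by symbol had a named probe set. The 4 tested ones each had a positive mean difference, as had 36.0% of all tested probe sets. Their median was 0.59, against -0.11 over all. CML23 was admitted to the test through its flu array of 60 min alone, so it could hardly come out lower in flu. CML42, CML41 and CML30 reached the filter in both genotypes. The share and the median are thus given as description only and are no evidence of a shift across the list. CML23 read 182, 265 and 131 in flu, against 41.3, 35.2 and 6.75 in Ler, with a mean difference of 1.64 (SE 0.33, limma adjusted p = 0.0652). The groups did not overlap, as for 9.36% of all tested probe sets, and the fit did not pass. CML42, which is known from trichome branching and from herbivore responses, read 791, 1405 and 1097 in flu, against 571, 487 and 588 in Ler (0.91, SE 0.22, limma adjusted p = 0.0974). Its groups did not overlap either. CML41 had 0.27 (SE 0.18, limma adjusted p = 0.434) and CML30 0.19 (SE 0.19, limma adjusted p = 0.602). CML43, named here because it completes the list, was too dim to test, with 76.5 to 95.9 in flu and 9.37 to 138 in Ler.

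Glutamate receptor-like channels, which let calcium into the cell, had 8 named probe sets and 4 tested, with a median of -0.25. GLR3.3, needed for wound signals that travel between leaves, read 350, 299 and 390 in flu, against 398, 481 and 450 in Ler (-0.32, SE 0.17, limma adjusted p = 0.344). GLR3.5 had -0.59 (SE 0.24, limma adjusted p = 0.235), GLR1.4 -0.17 and GLR2.7 -0.09. IQ-domain proteins, which bind calmodulin and associate with microtubules, had 9 of 15 named genes tested and a median of -0.17. IQD24 was the furthest apart, with 666, 298 and 271 in flu, against 690, 1038 and 952 in Ler (-1.11, SE 0.34, limma adjusted p = 0.152). IQD19 had -0.50, iqd21 -0.41 and IQD23 0.37, none of which passed.

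**Figure D5:**
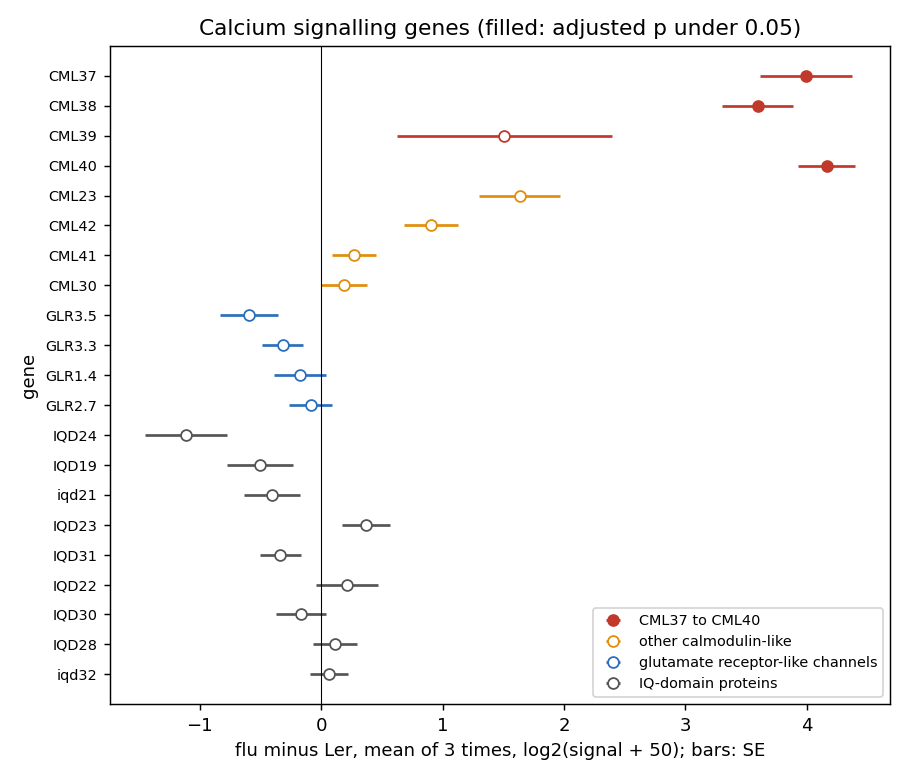
Mean flu minus Ler difference over the 3 times, in log2(signal + 50) with its SE from the fit as bars, for the 4 members and the 17 tested genes of the calcium lists (filled, adjusted p under 0.05; open, not). CML37, CML38 and CML40 are the filled points, at 3.59 to 4.16, and the 17 other genes lie between -1.11 and 1.64.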

How the data were processed

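The deposited values are linear MAS5 signals, 1 intensity for each probe set. MAS5 is named in the submitters' processing notes, without a version. Per the labels, 20 µg of total RNA went into each biotin-labelled target. Genotype and time came from the titles. Of 22810 probe sets, 64 controls were left out. Names came from the platform annotation (13513 probe sets with 1 gene, 503 with several, 8794 unnamed here) and a RefSeq table of TAIR10.1, which 13436 of them matched.

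Each array was set to a 2% trimmed mean of 500, which its deposited values already met closely, and log2(signal + 50) was taken. Probe sets whose highest signal reached the median of all values, 185, were tested (13064). The fit used limma 3.58.1 (R 4.3.3) with additive terms for genotype and for the 3 times, with a trend in the variance prior, 2 residual degrees of freedom and Benjamini-Hochberg adjustment over all tested probe sets at 0.05. The second fit added genotype by log2 minutes (1 residual degree of freedom). Both were run on simulated arrays with independent noise and known differences, as a check of the estimates. Those runs do not show that the p-values hold for arrays without replicates. Members, lists and tests were chosen with earlier results of these data known. Named genes are the members, up to 4 per list with the largest mean difference, and the 3 nearest named genes per member. Alternatives were other constants, scalings, filters and priors, each time left out, and no time in the fit.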

Additional observations from a re-analysis of the deposited data

Results flagged for a closer look

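The genotype differences of CML39 and CML37 were not the same at the 3 times, by the interaction of genotype and log2 minutes. CML39 grew by 2.17 per doubling of the time in light and CML37 by 0.96, with the limma adjusted p given above. Both values rest with equal weight on the differences at 30 min and at 2 h. The difference at 60 min does not enter their size. From 30 min to 2 h the difference went from -0.18 to 4.17 for CML39 and from 3.28 to 5.21 for CML37. At 2 h CML39 read 1009 in flu, against 9.04 in Ler. Hybridisation controls were dimmest in flu at 30 min (geometric mean 743), and their part in this growth was not tested. Groups of 1 array leave no check for a stray array within a group.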

How the results depend on the processing

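The mean differences of the 4 genes kept their direction and their side of the threshold in all 11 alternatives, with 3.38 to 4.47 for CML37, 2.97 to 4.40 for CML38, 3.70 to 4.62 for CML40, and 0.18 to 2.35 for CML39, which passed in none. Their highest limma adjusted p were 0.0435, 0.0366 and 0.0274 for the 3 that passed. Growth with time was less stable, with its direction kept throughout. CML37 lost its call with 16 added (1.09, limma adjusted p = 0.0532), after quantile normalization (0.90) and without a trend in the prior (0.96, limma adjusted p = 0.103). CML39 lost its call with 16 added (2.90, limma adjusted p = 0.106), after quantile normalization (2.15) and with a filter at the 75th percentile (2.17). The cause was not tested. Counts over all probe sets moved more. Against 375 higher and 49 lower, there were 567 and 134 without 30 min, 75 and 0 without 60 min, and 595 and 122 without 2 h, and the lower ones numbered 14 without a filter, 77 with the stricter filter, 15 without a trend and 131 without time in the fit. Positive and negative growth, 476 and 188, became 296 and 91 after quantile normalization and 280 and 58 without a trend. At single times, 8 values, all of CML38 and CML40 with another constant, moved by more than the gene's own residual SD and 40 did not. None of the 32 changes from 30 min to 2 h did. For CML39 that SD was 1.65, so large shifts stayed under it. Its difference at 2 h, 4.17, became 5.36 with 16 added and 3.35 with 100 added. Its flu change from 30 min to 2 h, 4.29, became 5.67 and 3.41. Growth with a time left out has no residual degree of freedom and was not run. Dim Ler signals limit the size of every fold change. The fit sets flu against Ler within each time, and without time in it CML37, CML38 and CML40 passed as well.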
